A study of Sorghum bicolor with 12 samples.

Results

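The phytochrome family of sorghum was examined in 12 RNA-seq libraries of growing vegetative stem. Its members were all transcripts in the deposited table whose identifiers begin with the loci of PHYA (Sobic.001G111500), PHYB (Sobic.001G394400) and PHYC (Sobic.001G087100), which gave 4 of 47205 transcripts and 3 of 34211 loci. PHYA and PHYB had 1 transcript each, and PHYC had 2. The identifiers place all 3 loci on chromosome 1.

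The libraries came from inbred R.07020, an energy sorghum that flowers only in short days, kept vegetative under a 14-h photoperiod and fluorescent lamps and sampled 60 days after planting. Int1, Int2, Int3 and Int4 are successive internodes of an otherwise untreated stem, from the youngest below the apical dome (Int1) to the oldest, which had stopped growing in length (Int4), and each had 3 biological replicates from 3 plants. There was no mutant, transgene or light treatment, so every comparison was one of position and age along the stem. Leaves and sheaths were removed, and each library held a whole internode with its epidermis, pith and vascular bundles.

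Phytochromes are red and far-red light receptors that carry a bilin pigment. Red light turns the receptor into an active form that enters the nucleus, binds basic helix-loop-helix PIF proteins and lowers their activity. Far-red light or long darkness returns it to the inactive form. The phytochromes of grasses fall into the types PHYA, PHYB and PHYC. In Arabidopsis and in grass seedlings phyA is the light-labile form that builds up in darkness and senses far-red light, and its gene is less expressed in light. PhyB is the light-stable form that senses the ratio of red to far-red light and restrains stem elongation, and in grasses such as rice phyC acts largely together with phyB. In sorghum, PHYB and PHYC are also known as maturity genes that delay flowering in long days.

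All values are RPKM, read counts scaled to transcript length and library size, so levels can be compared between genes. RPKM summed to 467612 to 508319 per library, and the depth of a library relative to Int1 replicate 1, read from the spacing of its low values, ranged from 0.835 to 1.06. As a description of the tissue, 42 lignin and 42 cellulose synthesis transcripts, which the study chose on these same samples for differing between internodes, were all detected in each internode. Chosen in this way, they are no independent check. Their summed RPKM ranged from 693 to 1484 (lignin) and from 1616 to 2758 (cellulose) in Int1/2 (Int1 and Int2 together), and from 2981 to 5710 and from 3710 to 4876 in Int3/4 (Int3 and Int4 together). In the same source 12 photosynthetic light reaction transcripts, chosen by the study in the same way, summed to 149 to 194 in Int1/2 and to 169 to 208 in Int3/4. The source was a shortened copy of the study's list, so these sums may not cover whole categories.

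PHYA was by far the most abundant phytochrome mRNA in every internode, and it was the only locus of the family whose level changed by more than 2-fold. Its RPKM was 119.94, 108.3 and 96.63 in the Int1 replicates and 137.15, 141.96 and 143.25 in the Int2 replicates. It was 394.96, 379.92 and 385.22 in Int3, and 334.32, 304.97 and 341.45 in Int4. Once libraries were put on a common scale by median ratios, Int4 differed from Int3 by only -0.088 on the log2 scale (limma adjusted p = 0.487). Without that scaling no library of one internode overlapped with those of another, and the order was Int1, Int2, Int4 and Int3 from the lowest to the highest. Such separation was common, since 49.2% of loci did not overlap between Int1 and Int2, 61.2% between Int2 and Int3, 44.7% between Int3 and Int4, 72.2% between Int1 and Int3, 70.7% between Int2 and Int4 and 78.6% between Int1 and Int4.

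The mean PHYA level was 108 ± 11.7 RPKM in Int1 and 141 ± 3.21 in Int2. It was 387 ± 7.63 RPKM in Int3 and 327 ± 19.3 in Int4 (SD, n = 3 each). Of the rise in mean RPKM from Int1 to Int3, 88.3% lay between Int2 and Int3. Among 20607 loci with a mean of at least 1 RPKM in at least 1 internode, PHYA was number 747 by level in Int1 and 543 in Int2, then 79 in Int3 and 131 in Int4.

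**Figure D1:**
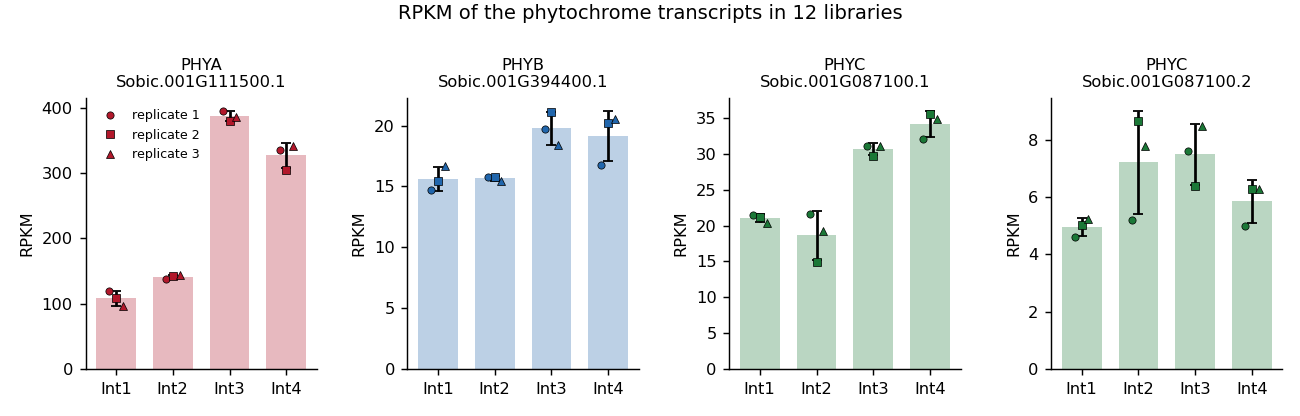
RPKM of the 4 phytochrome transcripts by internode; bars are means, error bars are SD of 3 replicates, points are libraries, and each panel has its own linear scale starting at 0. PHYA stepped from 137.15 to 143.25 RPKM in Int2 to 379.92 to 394.96 in Int3, whereas the PHYB libraries of all internodes lay between 14.73 and 21.11.

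PHYB had the lowest level of the 3 loci and varied least between internodes. Its RPKM was 14.73, 15.48 and 16.66 in Int1, and 15.78, 15.73 and 15.45 in Int2. It was 19.75, 21.11 and 18.43 in Int3, and 16.79, 20.17 and 20.5 in Int4. Without a scaling between libraries, the 6 libraries of Int3/4 lay above the 6 of Int1/2, but only just. The lowest of the former (16.79) was then close to the highest of the latter (16.66). Int1 overlapped with Int2, and Int3 with Int4. Over the 12 libraries the highest value was 1.43 times the lowest, against 4.09 times for PHYA.

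PHYC, summed over its 2 transcripts, lay between PHYA and PHYB. Its mean was 26.0 ± 0.291 RPKM for Int1 and 25.8 ± 1.92 for Int2, against 38.1 ± 1.85 for Int3 and 40.0 ± 2.56 for Int4 (SD, n = 3 each). The libraries fell into a lower pair of internodes (23.63 to 27.08 RPKM in Int1/2) and a higher pair (36.06 to 41.79 in Int3/4), with overlap within each pair and none between them. The order of the loci was thus PHYA, PHYC and PHYB in each internode, with no overlap between their libraries in any internode.

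Differences were tested with limma on log2(RPKM + 0.5), summed over the transcripts of a locus, in 1 fit of all loci and 12 libraries, and p-values were adjusted over the 20607 loci. Between Int3/4 and Int1/2 all 3 phytochrome loci were higher in the older internodes at an adjusted p under 0.05, as were 31.3% of all loci. PHYA rose by 1.52 on the log2 scale (SE 0.063, 95% confidence interval 1.39 to 1.66, adjusted p = 1.49e-09). PHYC rose by 0.58 (SE 0.056, interval 0.46 to 0.71, adjusted p = 1.20e-06), and PHYB by 0.30 (SE 0.067, interval 0.16 to 0.45, adjusted p = 0.00119).

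As ratios of mean RPKM these differences were 2.87-fold for PHYA, 1.51-fold for PHYC and 1.24-fold for PHYB. In all 3 loci the lowest Int3/4 library was above the highest Int1/2 library, which held for 18.7% of all loci. The size of the change placed PHYA at the 86.1st percentile of all loci, PHYC at the 51.4th and PHYB at the 29.6th, without a scaling between libraries.

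The median change of all loci was -0.15 on this scale, and it was 0.0057 once libraries were put on a common scale by median ratios (median-ratio scaling). The share of loci called higher at an adjusted p under 0.05 was then 38.2%, against 36.5% lower, in place of 31.3% and 45.0%. After this scaling the 3 phytochrome differences were larger, at 1.69 for PHYA, 0.74 for PHYC and 0.46 for PHYB, and stood at the 88.2nd, 62.3rd and 44.8th percentiles. In bulk tissue, fewer cells of a type and less RNA per cell cannot be told apart. The lignin and cellulose transcripts rose between the same internodes, and the part of tissue composition in the phytochrome differences was not tested.

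**Figure D2:**
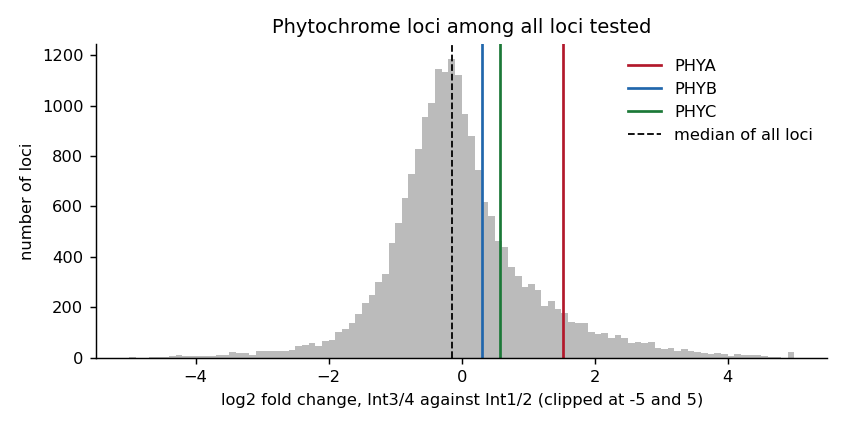
Histogram of the log2 fold change of 20607 loci between Int3/4 and Int1/2 (x axis, values beyond the ends placed in the outermost bins; y axis, number of loci), with the phytochrome loci as coloured lines. The PHYB (0.30) and PHYC (0.58) lines stand in the body of the distribution to the right of the median (-0.15), and the PHYA line (1.52) stands in its right flank.

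Between neighbouring internodes the loci differed mainly at the step from Int2 to Int3. There PHYA rose by 1.45 on the log2 scale (SE 0.089, limma adjusted p = 6.17e-07), PHYC by 0.55 (SE 0.079, adjusted p = 0.000121) and PHYB by 0.32 (SE 0.094, adjusted p = 0.0121). All 3 passed an adjusted p of 0.05 in this direction, as did 25.2% of all loci. With only the Int2 and Int3 libraries and the replicate number as a block, PHYB had an adjusted p of 0.0533, and without Int3 replicate 2 it had 0.0514. Libraries of the same number in Int2 and Int3 were not shown to be paired.

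From Int1 to Int2 only PHYA of the 3 loci rose at an adjusted p under 0.05, where 11.2% of all loci did, by 0.38 on the log2 scale (SE 0.089, limma adjusted p = 0.0119). Its call was lost without Int1 replicate 3 (adjusted p = 0.0577) or Int2 replicate 2 (0.0513). PHYB and PHYC had log2 differences of 0.0044 (95% interval -0.20 to 0.21, adjusted p = 0.980) and -0.0088 (interval -0.18 to 0.16, adjusted p = 0.948), so that changes of up to about those bounds could not be told from none.

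From Int3 to Int4 PHYA was lower by a log2 difference of -0.24 (SE 0.089, limma adjusted p = 0.0486). Thus 1 of 3 loci was called lower, against 23.8% of all loci called lower and 37.6% called in either direction. This call was at the edge of the threshold. It was lost in the fit of single transcripts (adjusted p = 0.0603) and under median-ratio scaling, where the difference was -0.088 (adjusted p = 0.487). Of the 12 fits that left out 1 library it held in 3, those without Int1 replicate 1, Int1 replicate 3 or Int4 replicate 3, and the adjusted p rose to 0.169 without Int4 replicate 2. PHYB differed by -0.047 (interval -0.25 to 0.16, adjusted p = 0.720) and PHYC by 0.068 (interval -0.10 to 0.24, adjusted p = 0.530). Scaling made the PHYC difference 0.22 (adjusted p = 0.0445) and turned that of PHYB to 0.10 (adjusted p = 0.361).

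Over longer distances along the stem all 3 loci were higher in the older internode at an adjusted p under 0.05, between Int1 and Int3 (29.1% of all loci), Int2 and Int4 (26.3%) and Int1 and Int4 (28.6%). The limma log2 difference of PHYA was 1.84, 1.21 and 1.59 in these comparisons, with an adjusted p of at most 2.37e-07. That of PHYC was 0.55, 0.62 and 0.61, with an adjusted p of at most 7.45e-05. That of PHYB was 0.33, 0.28 and 0.28, with adjusted p from 0.00837 to 0.0202. Under median-ratio scaling the PHYB differences were 0.46, 0.47 and 0.56, with a limma adjusted p of at most 0.000411. Leaving out 1 library took the limma adjusted p of PHYB above 0.05 between Int2 and Int4 without Int2 replicate 3 (0.0520), Int4 replicate 2 (0.0742) or Int4 replicate 3 (0.0698). Between Int1 and Int4 it did so without Int1 replicate 1 (0.0604), Int4 replicate 2 (0.0617) or Int4 replicate 3 (0.0591). These comparisons share libraries with each other and with the neighbouring ones and are not separate evidence.

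**Figure D3:**
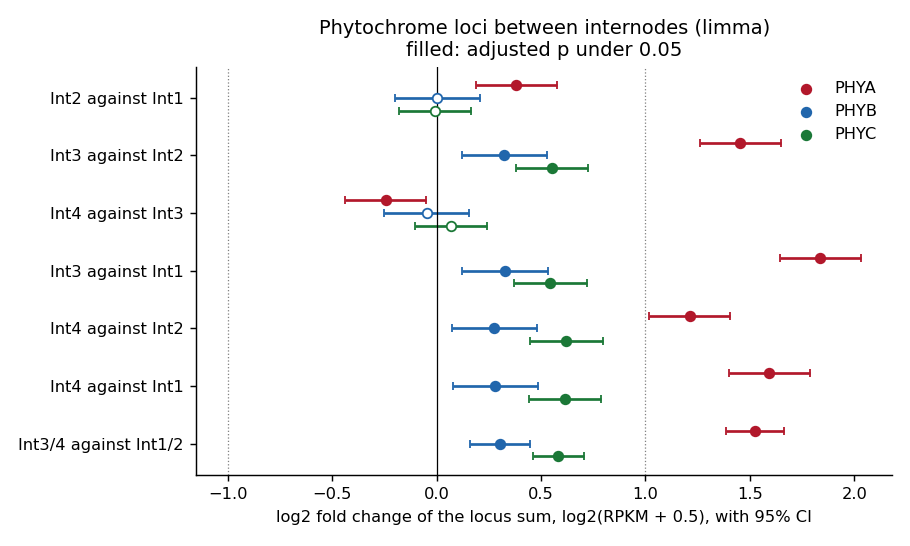
Log2 fold changes of the 3 phytochrome loci in 7 comparisons (x axis, limma on log2(RPKM + 0.5); bars are 95% confidence intervals, filled points have an adjusted p under 0.05, dotted lines mark 2-fold). PHYA lies beyond the 2-fold line wherever Int3 or Int4 is set against Int1 or Int2, at 1.21 to 1.84, and PHYB and PHYC stay inside it throughout.

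By the thresholds of the study (adjusted p under 0.001, a change of at least 2-fold and a mean RPKM of at least 2), applied to single transcripts in limma, 1 of the 4 phytochrome transcripts was called, and it was PHYA. It was called higher in Int3 than in Int2 (a comparison in which 9.13% of all transcripts were called in either direction), in Int3 than in Int1 (18.3%), in Int4 than in Int2 (19.4%), in Int4 than in Int1 (26.6%) and in Int3/4 than in Int1/2 (21.5%). In limma none was called between Int1 and Int2 (0.475% of all transcripts), and none was called lower from Int3 to Int4 (1.61%) or higher (2.49%). A missing call at these thresholds does not show that a transcript was unchanged. With the adjusted p under 0.05 as the only condition, limma called 1 of the 4 between Int1 and Int2 (12.7% of all transcripts), 3 between Int2 and Int3 (41.4%), 0 between Int3 and Int4 (27.0%), 4 between Int1 and Int3 (54.9%), 3 between Int2 and Int4 (56.1%), 3 between Int1 and Int4 (65.3%) and 3 between Int1/2 and Int3/4 (65.8%). The first PHYC transcript missed the 2-fold limit in each of these comparisons. Its largest difference, 0.87 on the log2 scale between Int2 and Int4 (limma adjusted p = 4.56e-05), became 1.06 under median-ratio scaling, and it was then called.

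As PHYA rose more than the other loci, it made up a larger part of the phytochrome mRNA in the older internodes. PHYA made up 72.1% ± 2.53 of the summed RPKM of the 3 loci in Int1 and 77.2% ± 1.0 in Int2, but 87.0% ± 0.104 in Int3 and 84.6% ± 1.5 in Int4. PHYB, the receptor known for shade responses, made up 10.5% ± 1.42, 8.59% ± 0.243, 4.45% ± 0.345 and 4.97% ± 0.594 in the same order. PHYC made up 17.4% ± 1.12, 14.2% ± 1.01, 8.58% ± 0.342 and 10.4% ± 0.929 (SD, n = 3 each). The share of PHYB was thus lower in Int3/4 than in Int1/2 although its own level was higher there. The summed RPKM of the 3 loci was 149.9 ± 10.9, 182 ± 3.12, 445 ± 8.28 and 386 ± 18.2.

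Ratios between loci were taken within each library, as differences of log2(RPKM + 0.5), and depend little on how a library was scaled. The log2 ratio of PHYB to PHYA was -2.75 ± 0.242 in Int1 and -3.13 ± 0.0463 in Int2, but -4.26 ± 0.109 in Int3 and -4.06 ± 0.198 in Int4 (SD, n = 3 each). The difference of Int3/4 from Int1/2 was -1.22 (SE 0.128, exact 2-sided permutation test over 924 splits, p = 0.00216, the smallest that 6 against 6 libraries can give, 0.00325 adjusted over 3 ratios). These splits treat the libraries as exchangeable. With exchange only within replicate numbers, the exact permutation p was 0.00926 for each of the 3 ratios, the smallest that 216 splits can give. All 6 libraries of Int3/4 lay below all 6 of Int1/2. PHYA had itself risen 2.87-fold without overlap, against 1.24-fold for PHYB and 1.51-fold for PHYC. Separation of the ratios to PHYA thus largely repeats the rise of PHYA and is not separate evidence. How many other loci separate from PHYA in this way was not counted.

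The log2 ratio of PHYC to PHYA differed by -0.94 between the same groups (SE 0.129, exact permutation p = 0.00216, adjusted 0.00325), also with no overlap. That of PHYB to PHYC differed by -0.28 (SE 0.066, exact permutation p = 0.00649, adjusted 0.00649), and here the groups overlapped, from -0.80 to -0.57 in Int1/2 and from -1.12 to -0.76 in Int3/4. The unequal rise was therefore clearest for PHYA against the other loci, and smaller for PHYC against PHYB. Between Int1 and Int4 alone the differences were -1.31, -0.98 and -0.33, each with an exact permutation p of 0.1, the smallest that 3 against 3 libraries allow.

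**Figure D4:**
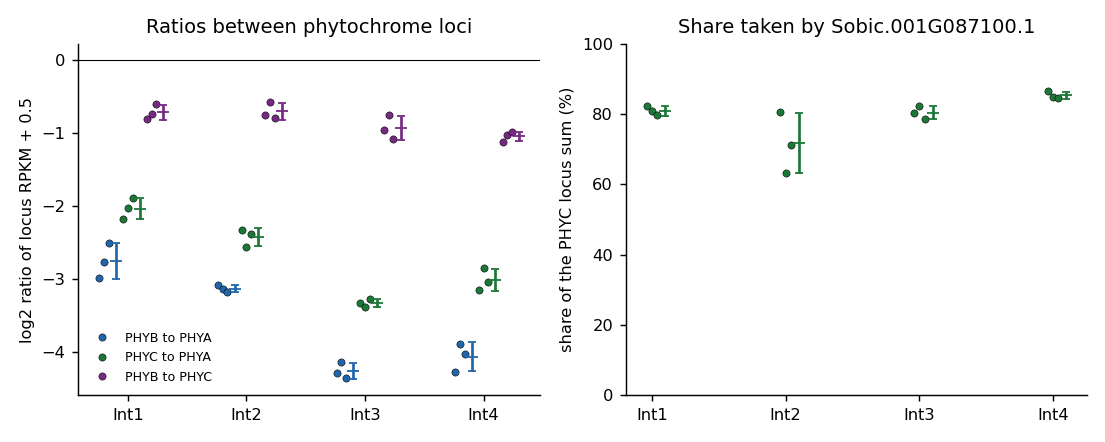
Left, log2 ratio of locus RPKM + 0.5 for each pair of phytochrome loci by internode; right, share of the PHYC locus sum taken by its first transcript (%). Points are libraries, and crosses with bars are means and SD of 3 replicates. Between Int2 and Int3 the mean ratio to PHYA goes from -3.13 to -4.26 for PHYB and from -2.43 to -3.33 for PHYC, and the second replicate of Int2 has the lowest transcript share (63.4%).

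The 2 PHYC transcripts were also examined one by one. The first, Sobic.001G087100.1, had an RPKM of 21.47, 21.17 and 20.41 in Int1, and of 21.62, 14.97 and 19.31 in Int2. It had 31.17, 29.68 and 31.11 in Int3, and 32.1, 35.52 and 34.92 in Int4. All libraries of Int3/4 lay above those of Int1/2, which held for 15.6% of all transcripts. The first transcript differed by 0.70 on the log2 scale (SE 0.081, limma adjusted p = 9.64e-06 over 26320 transcripts). It accounted for most of the PHYC locus, with 81.0% ± 1.36 of its RPKM in Int1 and 80.4% ± 1.86 in Int3, 71.7% ± 8.62 in Int2, where the libraries were widely spread, and 85.4% ± 0.978 in Int4 (SD, n = 3 each).

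The second, Sobic.001G087100.2, had an RPKM of 4.6, 5.01 and 5.22 in Int1, and of 5.21, 8.66 and 7.77 in Int2. It had 7.6, 6.38 and 8.48 in Int3, and 4.99, 6.27 and 6.29 in Int4. Its levels in Int1/2 and Int3/4 overlapped widely, and the difference between them was 0.14 on the log2 scale (95% interval -0.14 to 0.42, limma adjusted p = 0.345). With all libraries and no scaling it passed an adjusted p of 0.05 between Int1 and Int3 alone, with a log2 difference of 0.55 (limma adjusted p = 0.0234), and leaving out 1 library ended that call in 4 of 12 fits, with an adjusted p of up to 0.0846 (without Int1 replicate 1 or 2, or Int3 replicate 1 or 3). Median-ratio scaling gave 0.48 between Int1 and Int4 (adjusted p = 0.0310). Without Int2 replicate 1 the difference was 0.68 between Int1 and Int2 (limma adjusted p = 0.0336) and -0.46 between Int2 and Int4 (0.0329).

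The share of the first transcript was 6.58 percentage points higher in Int3/4 than in Int1/2, and this missed the threshold (exact 2-sided permutation p = 0.0541, and 0.0741 with exchange only within replicate numbers). In Int2 the second replicate was lowest in the first transcript (14.97 RPKM) and highest in the second (8.66 RPKM), while its PHYC sum, 23.63, stood nearer to the 26.83 and 27.08 RPKM of the other Int2 libraries. Reads that fit both transcripts can be divided between them in mapping, so the single values are less certain than the sum. Without Int2 replicate 2 the difference in share was 3.98 points (exact permutation p = 0.0996). It passed the threshold without Int1 replicate 1 (7.78 points, p = 0.0303), and, each with an exact permutation p of 0.0455, without Int1 replicate 2, Int2 replicate 1 or Int3 replicate 3.

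At a fixed limit of r, more loci followed PHYA and PHYC across the stem than followed PHYB. Pearson's r over the 12 libraries, on log2(RPKM + 0.5) of locus sums, was used as a measure of likeness and is given as a description, since the libraries share their internodes and plants. Of 20606 other loci, 1694 (8.22%) reached an r of 0.9 with PHYA, 1386 (6.73%) with PHYC and 80 (0.388%) with PHYB. PHYB varied only 1.43-fold over the 12 libraries, against 4.09-fold for PHYA, so the spread of replicates weighs more on its r. The lower count therefore does not show that its pattern is rarer. RPKM was not scaled between libraries here, and likeness after median-ratio scaling was not computed. The phytochrome loci were not each other's closest matches and stood at the 85.6th to 98.6th percentiles of each other's rankings. All 3 rose from Int1/2 to Int3/4, as did 31.3% of all loci (limma adjusted p under 0.05). These ranks are therefore not shown to be particular to the family. PHYC ranked 841 by likeness to PHYA (r = 0.936), and PHYB ranked 2958 (r = 0.841). By likeness to PHYB, PHYC ranked 293 (r = 0.861) and PHYA ranked 529. By likeness to PHYC, PHYA ranked 445 and PHYB ranked 2384.

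The loci most like PHYA were Sobic.002G264600 (r = 0.995), Sobic.007G211600 (r = 0.993) and Sobic.001G389100 (r = 0.991), for which no annotation was used here. The closest of them shared the order of levels but had a smaller range. Its mean was 29.2 ± 2.44 RPKM in Int1 and 34.7 ± 1.66 in Int2, then 66.0 ± 1.7 in Int3 and 58.8 ± 0.406 in Int4 (SD, n = 3 each). The loci most like PHYB were Sobic.008G106000 (r = 0.973), Sobic.006G148100 (r = 0.963) and Sobic.001G459500 (r = 0.960). Those most like PHYC were Sobic.010G186700 (r = 0.984), Sobic.004G347400 (r = 0.981) and Sobic.004G213600 (r = 0.980). Of these, Sobic.010G186700 changed by less than PHYC, from 21.7 ± 0.260 RPKM in Int1 to 27.1 ± 1.1 in Int4, and Sobic.004G213600 by more, from 16.8 ± 0.560 to 47.4 ± 2.91.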

How the data were processed

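The authors aligned single-end reads of poly(A) RNA to the sorghum v3.1 transcript sequences with the CLC Genomics Workbench and deposited RPKM values of 47205 transcripts in 12 libraries, to 2 decimals. Counts and transcript lengths were not used here, so no counting intervals are given. Differences were tested with limma 3.58.1 in R 4.3.3, not with the count model of the study. RPKM was transformed to log2(RPKM + 0.5), features with a mean of at least 1 RPKM in at least 1 internode were kept (26320 transcripts, 20607 loci), and 1 mean per internode was fitted with a prior variance that followed the mean. P-values were adjusted by Benjamini-Hochberg within each comparison. The fit was tested on simulated data. Ratios and shares were compared by exact 2-sided permutation tests in Python 3.11.15 with numpy 2.4.6 and pandas 2.3.3, and plots were made with matplotlib 3.10.9.

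Named genes were all transcripts of the 3 loci and, for each locus, the 3 others with the highest Pearson r. Members and lists were chosen with earlier results of these data known. A list of other light signalling genes could not be built, because no locus matched the reference table, and no sequence is printed for the same reason. The fits and the permutations over all splits treat libraries as independent, although the 4 internodes came from the same 3 plants. Replicate numbers are not stated to mark plants. In Int1 and Int2, libraries with the same number deviated together over transcripts (r = 0.13, 0.104 and 0.137), all above 0.1, the limit taken for pairing, which each of the other internode pairs missed for at least 1 number. A replicate block was therefore tried as well. Int3 replicates 1 and 3 deviated against the same numbers of Int4 (r = -0.233 and -0.339) and together with the crossed ones, 3 and 1 (0.334 and 0.374). With Int2 these values were -0.147 and -0.268, and 0.193 and 0.268. Whether the Int3 numbers mark the plants in another order was not tested.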

Additional observations from a re-analysis of the deposited data

How the results depend on the processing

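The choices varied were the pseudocount (0.1 and 1), the low-value filter, the scaling, the variance prior, the libraries in the fit, the replicate block, the locus sum, the thresholds and, in turn, each library. A block fit on the compared libraries only was added after seeing the data. The light signalling list was not run. Between Int3/4 and Int1/2 the differences of the 3 loci and of the 3 ratios kept their direction and side of the threshold throughout, over 1.48 to 1.69 for PHYA, 0.55 to 0.74 for PHYC and 0.28 to 0.46 for PHYB. The counting error of the low PHYC transcript (4.6 to 8.66 RPKM) is unknown.

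With an adjusted p under 0.05 alone, limma called 1, 3, 4, 3, 3 and 3 phytochrome transcripts in place of 0, 1, 1, 1, 1 and 1 for Int2 against Int1, Int3 against Int2, Int3 against Int1, Int4 against Int2, Int4 against Int1 and Int3/4 against Int1/2. Median-ratio scaling gave 2 calls for Int4 against Int2, turned the log2 difference of PHYC from Int1 to Int2 to 0.083 and that of PHYB from Int3 to Int4 to 0.10, and brought PHYC from Int3 to Int4 (0.22) past the threshold. PHYA from Int3 to Int4 lost its call with that scaling (-0.088), and, at -0.24, with no filter (limma adjusted p = 0.0681), a prior not following the mean (0.0668), the compared libraries only (0.136) and the most abundant transcripts (0.0530). The log2 ratio of the 2 PHYC transcripts differed by 0.56 (exact permutation p = 0.0498), while their share missed the threshold.

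With the replicate block, PHYA kept its call from Int1 to Int2 (limma adjusted p = 0.0211). From Int3 to Int4, which were not shown to be paired, PHYA at -0.24 lost it (0.0654, and 0.248 with the compared libraries only). The latter fit made 0 strict calls among all 24683 transcripts for Int3 against Int2, where PHYA stayed at 1.45 (0.00254) and PHYB was at 0.32 (locus fit, 0.0533). In both comparisons Int3 replicates 1 and 3 deviated against the same numbers (r = -0.147 and -0.268 with Int2, -0.233 and -0.339 with Int4). Blocked by number, these fits cannot show how the calls stand within plants. The block changed no other call.

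Without 1 library, log2 differences from Int1 to Int2 were 0.30 to 0.46 for PHYA, -0.036 to 0.050 for PHYB and -0.043 to 0.053 for PHYC. From Int2 to Int3 they were 0.28 to 0.37 for PHYB, and from Int3 to Int4 -0.28 to -0.19 for PHYA and -0.098 to 0.042 for PHYB. For PHYB they were 0.23 to 0.37 from Int2 to Int4 and from Int1 to Int4. The PHYC transcript share differed by 3.98 to 7.78 points. Sobic.001G087100.2 from Int2 to Int3 (0.07) ranged from -0.13 to 0.21, and was -0.13 without Int2 replicate 1 and -0.019 without Int3 replicate 3.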
